A study of Mus musculus with 20 samples.

Results

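The cytosolic ribosomal protein genes described here encode the proteins that, together with ribosomal RNA, form the large and the small subunit of the ribosome that translates nuclear messages. Members were all genes with a probe set of a single gene symbol whose symbol is Rpl or Rps followed by a number with an optional letter a, x or y, or Rplp0, Rplp1 or Rplp2, leaving out the paralogs ending in l and the Rps6k kinases. This gave 41 genes, 22 of the large subunit and 19 of the small subunit, out of 18193 genes measured. A further 27 ribosomal protein genes, Rplp1 and Rpl5 among them, are named by the platform only on probe sets that also name other genes, and no value is given for them singly.

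RNA came from VE-cadherin+ endothelial cells of bone marrow of C57/Bl6 mice aged 8 to 10 weeks. The 4 groups of 5 arrays were mice with no irradiation and mice 6 h, 24 h and 14 days after 5 Gy to the whole body. Replicates within a group are labelled biological, with no word on whether 1 mouse or a pool of mice gave each array, so p-values measure the spread between these samples. Sex and any genetic modification are not stated in the labels, and the mice were otherwise described alike in all groups.

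Ribosomal proteins are made in step with ribosomal RNA, because a ribosome needs a single copy of nearly every protein. In mammals many of their messages begin with a cytosine followed by a run of pyrimidines at the 5′ end, the terminal oligopyrimidine motif through which mTOR signalling governs their translation. When assembly is disturbed, some free ribosomal proteins, Rpl11 among them, bind Mdm2 and so stabilise p53, and in people inherited loss of 1 copy of several of these genes causes Diamond-Blackfan anaemia, a failure of red cell production.

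The start regions of members discussed below are shown because the pyrimidine run at the start site is the feature best known to be shared by the family. Each sequence is RefSeq's, build GRCm38.p6, 30 bases centred on the annotated start and written 5′ to 3′ on the gene's strand. Capitals mark the longest run of C and T of 5 or more bases that reaches within 10 bases of the start. Where such runs are equally long, as in Rps7, the first is marked. The 6 members with a run of 8 or more are given before the 4 with none that long.
Rpl38 (chr11:114668565-114668594, + strand): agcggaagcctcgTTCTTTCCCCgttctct
Rplp2 (chr7:141447636-141447665, + strand): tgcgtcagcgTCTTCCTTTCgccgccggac
Rps27 (chr3:90213634-90213663, - strand): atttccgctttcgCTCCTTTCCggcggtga
Rps6 (chr4:86857353-86857382, - strand): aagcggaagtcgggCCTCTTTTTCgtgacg
Rpl14 (chr9:120571502-120571531, + strand): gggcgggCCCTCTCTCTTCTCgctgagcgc
Rps9 (chr7:3704026-3704055, + strand): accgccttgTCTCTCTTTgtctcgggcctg
Rps7 (chr12:28635939-28635968, - strand): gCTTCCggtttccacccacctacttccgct
Rplp0 (chr5:115559452-115559481, + strand): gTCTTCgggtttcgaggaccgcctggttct
Rpl11 (chr4:136053379-136053408, - strand): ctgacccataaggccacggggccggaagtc
Rps19 (chr7:24884577-24884606, + strand): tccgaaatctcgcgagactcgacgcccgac

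Start regions were listed for 36 of the 41 members. A run of at least 8 pyrimidines was found in 17 of 36 members (47.2%) and in 13.9% of the 27025 promoters listed for the mouse. The letters CTTTCC, read on the gene's strand alone within the 30 bases and often lying inside such a run, were found in 5 of 36 members and in 1.39% of all promoters. In the 250 bases before and 50 after the start, CCGGAAG on either strand, which holds the core of the ETS family motif, was present in 17 of 36 members and 9.12% of all promoters. The letters AAGATGG, which hold the core of the YY1 motif, were present there on either strand in 6 of 36 members (16.7%) and 6.48% of all promoters. At 24 h the median change was -0.54 (log2) over the 17 members with a run of 8 or more, of which 14 were called lower, and -0.47 over the 19 without, of which 16 were called lower. These counts describe letters in a window around annotated starts, which need not be the starts used in these cells.

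Signals are the authors' linear array intensities, scaled so that the trimmed mean of every array is 500, and changes are log2 fold changes ± SE from a limma model of all 18193 genes. A gene was called when its Benjamini-Hochberg adjusted p over all genes was under 0.05. The 14 endothelial marker genes were all detected, with a mean of 9.95, 11.46, 10.49 and 9.17 (log2) in non-irradiated, 6 h, 24 h and day 14 samples. Markers of other marrow cells were present too. The mean of 10 erythroid genes was 11.73, 8.44, 6.65 and 12.20, that of 11 granulocyte genes lay between 12.31 and 12.99, and that of 14 pan-leukocyte genes between 10.89 and 11.08. In such bulk samples fewer cells of a type and less RNA per cell cannot be told apart, and a change below may be either.

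The ribosomal protein genes were lower at 24 h as a family and, under the deposited scaling, close to the non-irradiated level by day 14. The mean log2 signal of the 41 members on each array was 12.71, 12.69, 12.74, 12.82 and 12.67 in non-irradiated samples, 12.61, 12.46, 12.60, 12.40 and 12.61 at 6 h, 12.17, 12.28, 12.30, 12.15 and 12.22 at 24 h, and 12.77, 12.54, 12.60, 12.59 and 12.43 at day 14. All 5 arrays at 24 h lay below all arrays of the other 3 groups, and all 5 at 6 h lay below all 5 non-irradiated arrays, whereas day 14 overlapped with the non-irradiated group. The members' mean was lower than in non-irradiated samples by 29.3% at 24 h (difference -0.50 ± 0.039, log2) and by 12.4% at 6 h (-0.19 ± 0.052), and at day 14 the difference was -0.14 ± 0.061. Their part of the summed signal of an array was 1.69% ± 0.054 in non-irradiated samples, 1.52% ± 0.090 at 6 h, 1.23% ± 0.067 at 24 h and 1.55% ± 0.11 at day 14 (SD, n = 5 each).

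**Figure D1:**
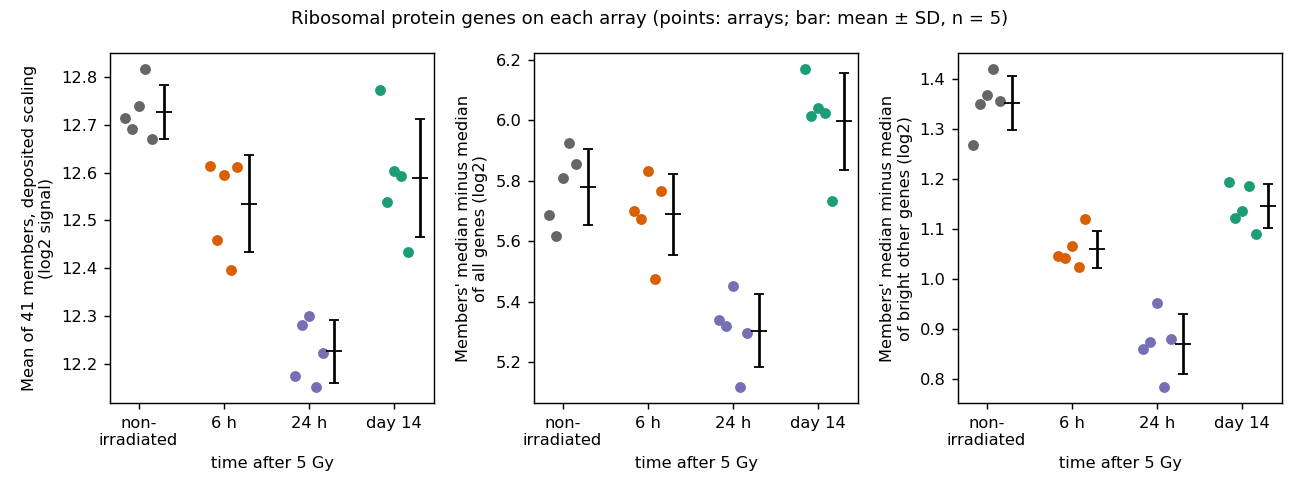
The 41 members on each of the 20 arrays, by time after irradiation (x axis), as the mean log2 signal under the deposited scaling (left), as their median minus the median of all genes (centre) and as their median minus that of 907 bright other genes (right). Points are arrays and bars the mean ± SD of 5. The 24 h arrays lie lowest in all 3 panels, while day 14 lies above non-irradiated in the centre panel on average (6.00 against 5.78) and below it in the right panel (1.15 against 1.35).

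The scale on which arrays are set side by side bears on the small changes. The median of all genes was 0.28 lower at day 14 than in non-irradiated samples and 0.02 higher at 24 h. Relative to it, the members' median differed from non-irradiated by -0.09 ± 0.082 at 6 h, -0.47 ± 0.078 at 24 h and 0.22 ± 0.091 at day 14. Relative to the 907 brightest other genes (5% of all), the differences were -0.29 ± 0.029, -0.48 ± 0.036 and -0.21 ± 0.031. The direction at 24 h was thus shared by all 3 scales, each of which rests on genes of the samples, and that at day 14 depended on the scale. Each of these scales shifts all genes of an array alike, so their agreement cannot show whether a loss grows with brightness. The bright other genes were also dimmer than the members, with medians of 12.42 and 13.77 (log2) in non-irradiated samples. With quantile and cyclic loess normalization, which are not such shifts, the members' median change at 24 h was -0.19 and -0.38. The 18 hybridization control probe sets, which are not genes of the samples, did not give the same picture. Their mean differed from non-irradiated by 0.07 at 6 h, -0.60 at 24 h and -0.63 at day 14. Under the same deposited scaling the members' median differed by -0.17, -0.46 and -0.07, so the members did not fall relative to these controls at 24 h. A fit scaled on the controls was not run.

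At 24 h 35 of 41 members were lower than in non-irradiated samples and 0 were higher, also at an unadjusted p under 0.05 by limma (85.4% lower, beside 13.8% of all genes), and the median change was -0.48, beside -0.07 for all genes. In 32 members all 5 arrays at 24 h lay below all 5 non-irradiated arrays, beside 12.9% of all genes. Of the 22 large subunit members 20 fell (median -0.49) and of the 19 small subunit members 15 fell (median -0.47). The 6 members not called were Rpl37, Rpl39, Rps2, Rps6, Rps16 and Rps27. Of these, Rps6 had the sole positive value, 0.11 ± 0.14 (adjusted p = 0.613). The probe set of Rps16 was not above the background of any array and so gives no measure of that gene, and that of Rpl37 was above background on 18 of 20 arrays.

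Rps7, a small subunit protein that also binds Mdm2, gave the largest fall among members with a mean signal above 5000. Its signal was 11675, 12432, 10575, 11752 and 11338 in non-irradiated samples, 8815, 9254, 10291, 7843 and 10467 at 6 h, 5821, 6469, 7528, 6319 and 6137 at 24 h, and 12186, 10260.1, 11414, 11009 and 9138 at day 14. The 24 h arrays lay below all others and the 6 h arrays below all non-irradiated arrays, while day 14 overlapped with non-irradiated. The change was -0.84 ± 0.087 at 24 h (adjusted p = 2.36e-08), -0.31 ± 0.087 at 6 h (adjusted p = 0.00743) and -0.10 ± 0.087 at day 14 (adjusted p = 0.423). The 6 h call was lost with centring on the median of all genes (-0.24, adjusted p = 0.101), and with the mean of both its probe sets the day 14 value turned positive (0.19, adjusted p = 0.0397). The size of the 24 h fall rests on the brighter probe set. The dimmer one (mean signal 4785) gave -0.36 ± 0.12 at 24 h (adjusted p = 0.028 by limma).

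Rplp0 encodes the protein that anchors the stalk of the large subunit, to which elongation factors bind, and is often used as a reference gene in PCR. It had signals of 11351, 11341, 12414, 13558 and 12506 in non-irradiated samples, 9174, 7689, 9104, 8012 and 9186 at 6 h, 8576, 9426, 9237, 8096 and 8448 at 24 h, and 14429, 11965, 12269, 12538 and 11069.9 at day 14. All 6 h and 24 h arrays lay below all arrays of the other 2 groups. Rplp0 fell by 0.50 ± 0.076 on the log2 scale at 6 h (adjusted p = 9.94e-06) and by 0.48 ± 0.076 at 24 h (adjusted p = 1.55e-05). Against the members' own median it was lower at 6 h (-0.34 ± 0.052, adjusted p = 1.04e-05) and not called at 24 h (-0.03 ± 0.052, adjusted p = 0.756).

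Rps19, whose human counterpart is the gene most often mutated in Diamond-Blackfan anaemia, changed less. Its signal was 6171, 6097, 6192, 7140.4 and 5791 in non-irradiated samples, 5924, 6152, 5832, 5708 and 6805 at 6 h, 4793, 4796, 5038, 4946 and 5240.4 at 24 h, and 7071, 6736, 7347, 7076 and 6601 at day 14. The 24 h arrays lay below all others, and the remaining groups overlapped with the non-irradiated one. At 24 h the change of Rps19 was -20.8% (-0.34 ± 0.072 on the log2 scale, adjusted p = 0.000621). Of the 12 measured members whose human counterparts are known for this anaemia, 11 fell at 24 h and 5 at 6 h, with medians of -0.50 and -0.16. Over all 41 members 35 and 14 fell (medians of -0.48 and -0.17), beside 13.8% and 14.5% of all genes.

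Rpl11, of the protein group that joins a small ribosomal RNA and inhibits Mdm2, had signals of 12986, 13787, 14247, 15226 and 14709.7 in non-irradiated samples, 12710.3, 13063, 13151, 12064 and 12783 at 6 h, 10454, 9588, 11358, 9202 and 10639 at 24 h, and 14671, 13145, 12999, 14912 and 12059.7 at day 14. Its 24 h arrays lay below all other arrays. It was lower at 24 h (-0.47 ± 0.068, adjusted p = 4.38e-06) and within 0.02 of the members' median at each time. Of the 9 measured members known to bind Mdm2, 8 fell at 24 h, 1 at 6 h and 2 at day 14. Over all 41 members the counts were 35, 14 and 13, beside 13.8%, 14.5% and 13% of all genes. The 7 p53 target genes measured alongside were all higher at 6 h and at 24 h, with medians of 2.66 and 2.36, beside 12.9% and 15.7% of all genes.

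Rpl12 and Rps25, which lie in different subunits, were lower at 24 h and at day 14. Rpl12 belongs to the base of the stalk and Rps25 is known for its part in initiation at internal entry sites. The Rpl12 probe set read 1092, 906, 1197, 816 and 1192 in non-irradiated samples, 641, 1054, 1052, 667 and 1016 at 6 h, 496, 399, 489, 483 and 585 at 24 h, and 464, 337, 386, 406 and 353 at day 14. All 24 h and day 14 arrays lay below all 6 h and non-irradiated arrays. Rpl12 changed by -1.08 ± 0.19 at 24 h (adjusted p = 5.65e-05) and by -1.41 ± 0.19 at day 14 (adjusted p = 5.19e-06), and the Rps25 change was -0.997 ± 0.23 (adjusted p = 0.00159) and -0.78 ± 0.23 (adjusted p = 0.0183). The Rps25 call at day 14 was lost without non-irradiated replicate 2 (adjusted p = 0.0577) or day 14 replicate 3 (adjusted p = 0.0533), and with centring on the median of all genes (adjusted p = 0.124). Rpl12 and Rps25 are each read from 1 dim probe set (mean signals of 702 and 1114) whose suffix is _at with no added letter. The members' 26 probe sets of that suffix had medians of -0.68 at 24 h and -0.60 at day 14. Over all 92 member probe sets the medians were -0.52 and -0.16. Of the 26, 10 were lower and 3 higher at day 14. The part of probe set design in these changes was not tested.

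**Figure D2:**
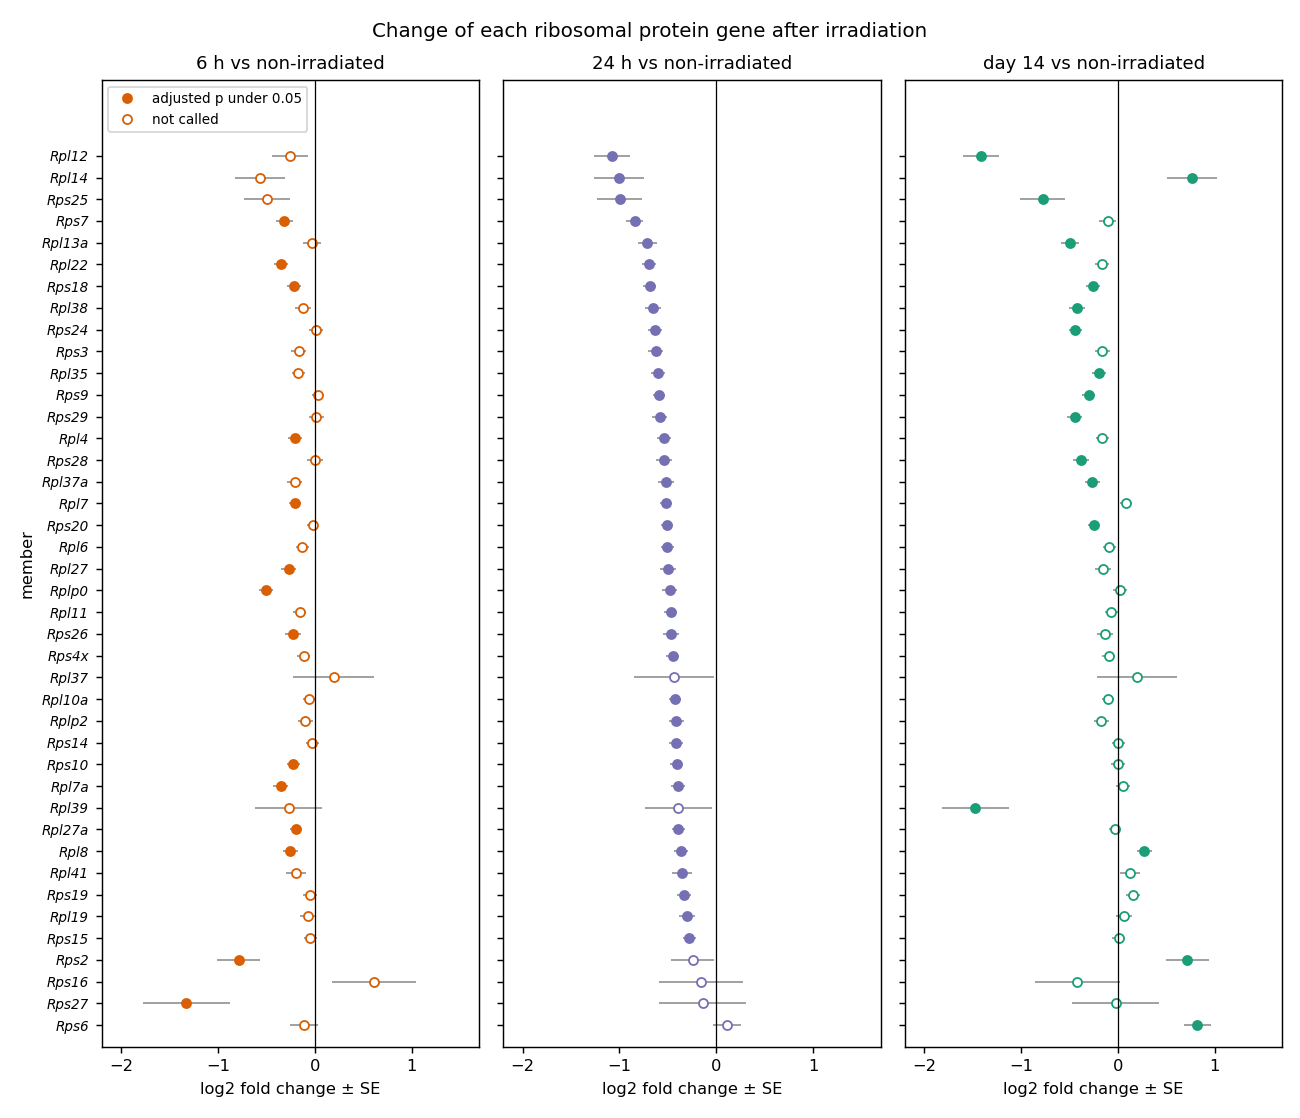
Log2 fold change against non-irradiated samples (x axis, ± SE) of each of the 41 members (rows, ordered by the 24 h change) at 6 h, 24 h and day 14. Filled points have an adjusted p under 0.05, and Rps16 was not above background on any array. At 24 h 40 of 41 points lie left of 0 and 35 are filled, at 6 h 14 are filled, and at day 14 filled points lie on both sides, 13 left and 4 right.

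At 6 h 14 of 41 members were lower and 0 were higher, also at an unadjusted p under 0.05 by limma (34.1% lower, beside 14.5% of all genes), and the median change was -0.17, beside -0.02 for all genes. Called were Rpl4, Rpl7, Rpl7a, Rpl8, Rpl22, Rpl27, Rpl27a and Rplp0 of the large subunit and Rps2, Rps7, Rps10, Rps18, Rps26 and Rps27 of the small subunit. In 7 members all 5 arrays at 6 h lay below all 5 non-irradiated arrays and in 0 above them, beside 8.05% and 7.59% of all genes. The count was 5 with each array centred on the median of all genes, 29 with centring on the bright other genes, 2 with a 1.5-fold minimum and 8 without non-irradiated replicate 4. With the mean of the erythroid marker genes as a covariate 0 were called by limma, and 3 were lower at an unadjusted p under 0.05.

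Rps29, read by the brightest probe set of the family, did not share the 6 h change. Its signal was 29905, 30687, 32642, 34241 and 31427 in non-irradiated samples, 32079, 29386, 36062, 28005 and 35757 at 6 h, 21858, 20969.9, 24158, 18607 and 20731 at 24 h, and 26892, 22297, 25026, 23176 and 19789 at day 14. The 6 h arrays overlapped with the non-irradiated arrays, and all 24 h and day 14 arrays lay below both. The change was 0.02 ± 0.079 at 6 h (adjusted p = 0.917), -0.58 ± 0.079 at 24 h (adjusted p = 1.83e-06) and -0.45 ± 0.079 at day 14 (adjusted p = 0.000216). With quantile normalization the 24 h value was -0.06 (adjusted p = 0.121) and the day 14 value 0.07 (adjusted p = 0.0917), and with centring on the median of all genes the day 14 value was -0.16 (adjusted p = 0.252). Relative to the members' median on each array, 6 members were called higher at 6 h, Rps9, Rps14, Rps20, Rps24, Rps28 and Rps29, and 5 were called lower, Rpl7a, Rpl22, Rplp0, Rps2 and Rps27. On that relative scale 16.6% of all genes were called higher and 10.4% lower, and the member counts at 6 h were close to these shares. Centring on the members' median places members on both sides of 0 by construction. The shares of all genes shift with that centring, so they are no neutral background for the member counts. The member counts at 6 h were 14 higher and 2 lower with the mean of each gene's probe sets, and 11 and 1 without probe sets open to cross-hybridization. At 24 h the same measure called 3 members higher, Rpl19, Rps6 and Rps15 (a small subunit protein, 0.17 ± 0.049), and 11 lower, with Rps7 among them (-0.39 ± 0.071, adjusted p = 7.28e-05), beside 30.1% and 5.69% of all genes. With the mean of probe sets 5 were higher and 4 lower, and without cross-hybridizing probe sets 3 were lower. Under quantile normalization Rps15, lower at 24 h by the deposited scaling (-0.28 ± 0.068), was the member called higher (0.097, adjusted p = 0.0368).

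Rps2, a small subunit protein near the entry of the message channel, had an unlike course. Its signal was 7972, 3586, 4446, 7644 and 5818 in non-irradiated samples, 2789.8, 3709.9, 3793, 1794 and 5266 at 6 h, 3245, 6386, 5259.9, 4632 and 4819 at 24 h, and 9012, 10070.2, 9033, 10269 and 8091 at day 14. The non-irradiated arrays spread widely and overlapped with 6 h and 24 h, and all day 14 arrays lay above all others. Rps2 was lower at 6 h (-0.79 ± 0.22, adjusted p = 0.0092) and higher at day 14 (0.72 ± 0.22, adjusted p = 0.0229), and the day 14 call was lost without non-irradiated replicate 2 (adjusted p = 0.0878) or 3 (0.0641) or day 14 replicate 2 (0.0513) or 4 (0.0528), or with cyclic loess normalization (0.0538). The largest 6 h change by size, -1.32 ± 0.45 in Rps27 (adjusted p = 0.0287), came from a dim probe set with signals of 122, 59.8, 79.7, 45.0 and 39.3 at 6 h, against 115, 117, 279.9, 314 and 89.3 in non-irradiated samples. These groups overlapped, 2 of the 5 arrays at 6 h were not above background, and the call was lost without non-irradiated replicate 3 or 4 or 6 h replicate 4 or 5 (adjusted p = 0.0613 to 0.0976) or with only those 2 groups fitted (0.0753).

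**Figure D3:**
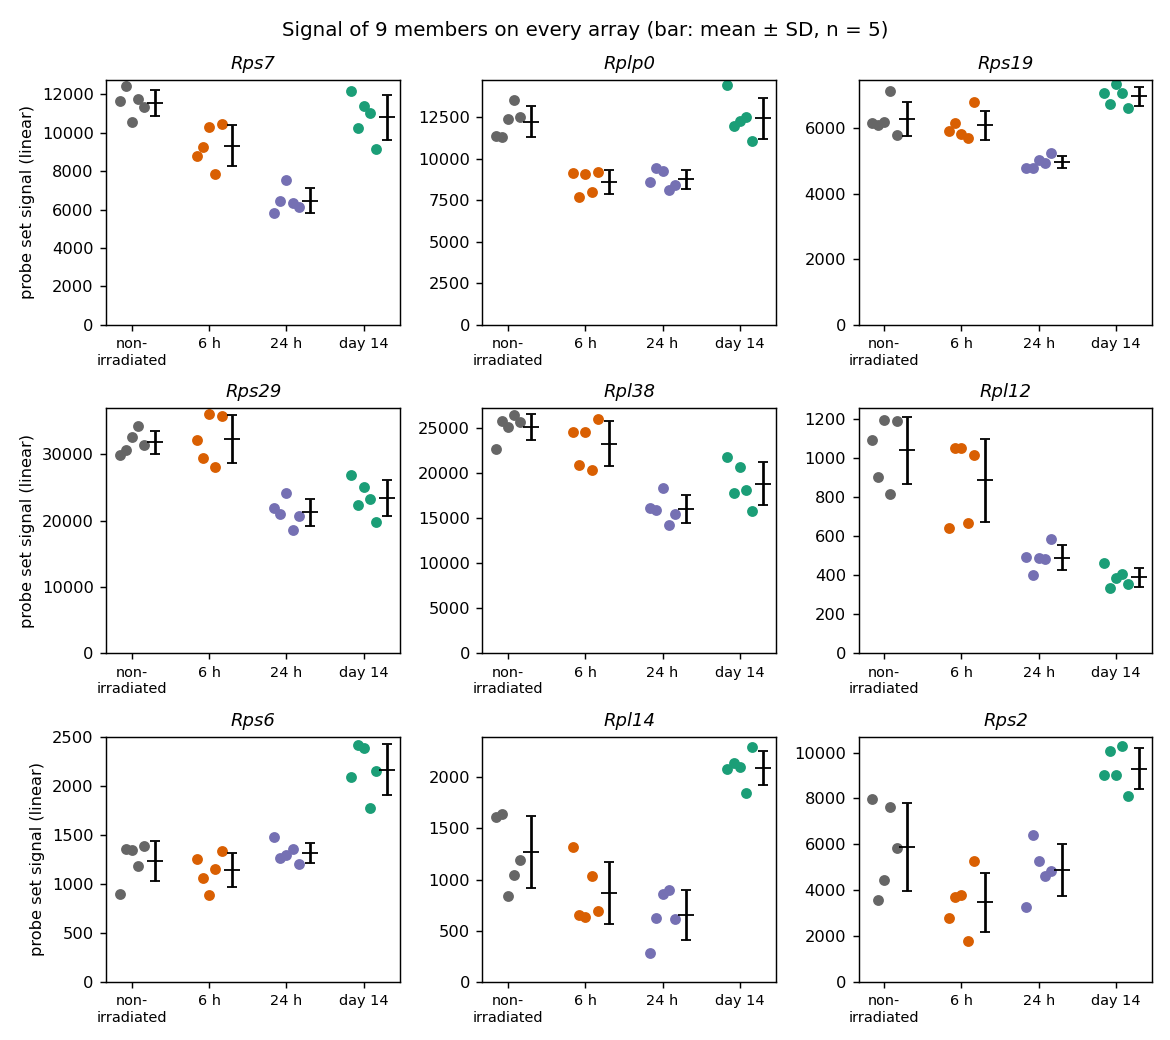
Linear probe set signal (y axis, starting at 0) of 9 members on every array, by time after irradiation. Points are arrays and bars the mean ± SD of 5. Rps7, Rplp0 and Rps19 overlap at day 14 with the non-irradiated arrays, with 2 arrays of Rps7 and 1 of Rplp0 below the lowest of these, Rps29, Rpl38 and Rpl12 stay lower (Rpl12 averages 389 at day 14 against 1041 in non-irradiated samples), and Rps6, Rpl14 and Rps2 are highest at day 14.

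At day 14 calls fell on both sides. Of 41 members 13 were lower (31.7%, beside 13% of all genes) and 4 were higher (9.76%, close to the 9.47% of all genes), with a median of -0.10, beside -0.18 for all genes. Those called lower were Rpl12, Rpl13a, Rpl35, Rpl37a, Rpl38 and Rpl39 of the large subunit and Rps9, Rps18, Rps20, Rps24, Rps25, Rps28 and Rps29 of the small subunit. Those called higher were Rpl8, Rpl14, Rps2 and Rps6. With each array centred on the median of all genes, 14 were higher and 2 lower, and with centring on bright other genes 2 were higher and 26 lower, so the balance of calls at day 14 depended on the scale. The median over members and over all genes was 0.18 and 0.10 with the first of these scalings, -0.24 and -0.32 with the other, and 0.07 and 0.19 with quantile normalization. Measured against the members' own median, which no constant factor per array alters, 12 members were lower and 5 higher (beside 10.4% and 11% of all genes), the higher count again being close to the share of all genes. As at 6 h, these shares depend on the centring and are no neutral background. Without probe sets open to cross-hybridization 7 were lower on this scale.

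Rpl38, a large subunit protein known in mice for its part in translating Hox messages, was among the members still lower at day 14. Its signal was 22676, 25741, 25069, 26468 and 25674 in non-irradiated samples, 24597, 20873, 24552, 20322 and 25952 at 6 h, 16119, 15901, 18375, 14217 and 15470.4 at 24 h, and 21735, 17778, 20687, 18082 and 15762 at day 14. All day 14 arrays lay below all non-irradiated arrays and overlapped with the 24 h arrays. Rpl38 was lower by -0.43 ± 0.082 at day 14 (adjusted p = 0.000562), and by -0.36 ± 0.050 relative to the members' median (adjusted p = 9.2e-06). Rps9 and Rps28, both of the small subunit, were lower at day 14 by -0.30 ± 0.064 and -0.38 ± 0.083 (adjusted p = 0.00141 and 0.00161). With centring on the median of all genes the day 14 calls of Rpl38 (-0.14, adjusted p = 0.327), Rps9 (-0.02, adjusted p = 0.903) and Rps28 (-0.10, adjusted p = 0.505) were lost, as they were with quantile normalization, where Rps28 turned positive (0.022, adjusted p = 0.733).

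Rps6, the small subunit protein phosphorylated by the kinases downstream of mTOR, was the member with the largest rise at day 14. Its probe set read 897, 1353, 1347, 1183 and 1384 in non-irradiated samples, 1254, 1059.8, 889, 1154 and 1337 at 6 h, 1475, 1262, 1300.0, 1352 and 1202 at 24 h, and 2096, 2418, 2393, 1774 and 2150.3 at day 14. The day 14 arrays lay above all others, and the other 3 groups overlapped. Rps6 rose by 0.82 ± 0.14 (adjusted p = 0.000161), and relative to the members' median it was higher at 24 h too (0.57 ± 0.15, adjusted p = 0.00402). A second, dimmer probe set of Rps6 gave -0.91 ± 0.73 at day 14 (adjusted p = 0.363), so that the mean of both turned the sign (-0.04).

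Rpl14, a large subunit protein, had signals of 1612, 1643, 839, 1048 and 1191 in non-irradiated samples, 1321, 649, 631, 1034 and 692 at 6 h, 283, 627, 858, 898 and 614 at 24 h, and 2082, 2145, 2101, 1844 and 2298 at day 14. Its day 14 arrays lay above all others, and its 24 h arrays overlapped with the non-irradiated ones. It was lower at 24 h (-1.01 ± 0.26, adjusted p = 0.00362) and higher at day 14 (0.77 ± 0.26, adjusted p = 0.0337). The day 14 call was lost without any of non-irradiated replicates 3, 4 and 5 or day 14 replicates 1, 2, 3 and 5 (adjusted p = 0.0584 to 0.0997), and with quantile (0.119) or cyclic loess normalization (0.0941), centring on bright genes (0.0915) or the replicate number as a block (0.0518). Rpl39, of the peptide exit tunnel, had signals of 336, 192, 204, 188 and 293 at day 14, against 1193, 937, 951, 467 and 242 in non-irradiated samples, which overlap, and changed by -1.47 ± 0.35 (adjusted p = 0.00336). Like Rpl12 and Rps25, Rpl39 is read from 1 dim probe set (mean signal 523) with the plain _at suffix.

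The 3 sets of changes share the non-irradiated arrays, so their patterns across time are not independent. With that limit, 11 members were called lower at 24 h alone (Rpl6, Rpl10a, Rpl11, Rpl19, Rpl41, Rplp2, Rps3, Rps4x, Rps14, Rps15 and Rps19), 10 at 6 h and 24 h (Rpl4, Rpl7, Rpl7a, Rpl22, Rpl27, Rpl27a, Rplp0, Rps7, Rps10 and Rps26) and 11 at 24 h and day 14 (Rpl12, Rpl13a, Rpl35, Rpl37a, Rpl38, Rps9, Rps20, Rps24, Rps25, Rps28 and Rps29). Rps18 was lower at all 3 times. Rpl8 was lower at 6 h and 24 h and higher at day 14. These patterns are those of the chosen probe sets, and other probe sets of a member can differ. The other 3 probe sets of Rpl41 were called lower at day 14 (-0.70, -1.76 and -1.44). The other 3 of Rpl13a were positive and not called at day 14 (0.21, 0.37 and 0.25). At 6 h the first of those Rpl13a probe sets and the next were called lower (-0.43 and -0.56). Over the 4 groups the F test called 39 of 41 members (beside 55.1% of all genes), the exceptions being Rpl37 and Rps16.

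The fold changes of the direct comparisons between times do not use the non-irradiated arrays, although their errors and calls come from the same model of all 4 groups. At 24 h 29 members were lower than at 6 h and 0 higher (beside 10.1% and 13.7% of all genes), with a median of -0.34, and with quantile normalization 9 were lower and 5 higher. Between day 14 and 24 h 32 members were higher and 1, Rpl39, was lower (-1.08 ± 0.35, adjusted p = 0.0157, beside 15.2% and 21.7%), with a median of 0.36, beside -0.27 for all genes. Between day 14 and 6 h 13 were higher and 9 lower (beside 19.8% and 25%), which became 23 and 4 with centring on the median of all genes and 30 and 3 with quantile normalization. In 23 members all 5 arrays at 24 h lay below all 5 at 6 h and in 0 above, where 2 members were higher at an unadjusted p under 0.05 by limma (beside 6.61% and 7.99% of all genes). The largest rise between day 14 and 24 h was that of Rpl14 (1.78, adjusted p = 3.81e-06), followed by Rps2 (0.96) and Rps7 (0.74, adjusted p = 1.5e-07). In either direction 36.9% of all genes were called between day 14 and 24 h, and 44.9% between day 14 and 6 h.

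Brightness and array-wide measures moved with the later groups. The mean of 18 hybridization control probe sets was 12.77, 12.84, 12.17 and 12.14 (log2) in non-irradiated, 6 h, 24 h and day 14 samples, and the highest signal of an array averaged 41559, 42617, 26533 and 26792. The 3′ minus 5′ signal of control transcripts averaged 0.61, 0.74, 0.38 and 0.42 (log2). Among genes with a mean signal of 15000 or more, 13 of 13 members (median -0.58) and 26 of 33 other genes (median -0.41) were lower at 24 h, and 9 of 13 members (median -0.27) and 21 of 33 other genes (median -0.37) at day 14. At 10000 to 15000, 14 of 14 members (median -0.47) and 50 of 87 other genes (median -0.26) were lower at 24 h, with 14 of those 87 higher, and at day 14 1 member and 30 other genes were lower. At 5000 to 10000, 4 of 5 members (median -0.36) and 182 of 463 other genes (median -0.04) were lower at 24 h, and 164 of the 463 were higher. Across the 32 members with a signal above 5000, the change correlated with log2 signal at r = 0.64 at 6 h, -0.39 at 24 h and -0.82 at day 14, across genes that share the same arrays. The part of this dependence on brightness in the 24 h and day 14 changes was not tested beyond these counts. With quantile normalization 26 members were lower and 1 higher at 24 h, with a median of -0.19 (beside 0.13 for all genes), and with cyclic loess normalization 35 were lower, with a median of -0.38 (beside -0.01).

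**Figure D4:**
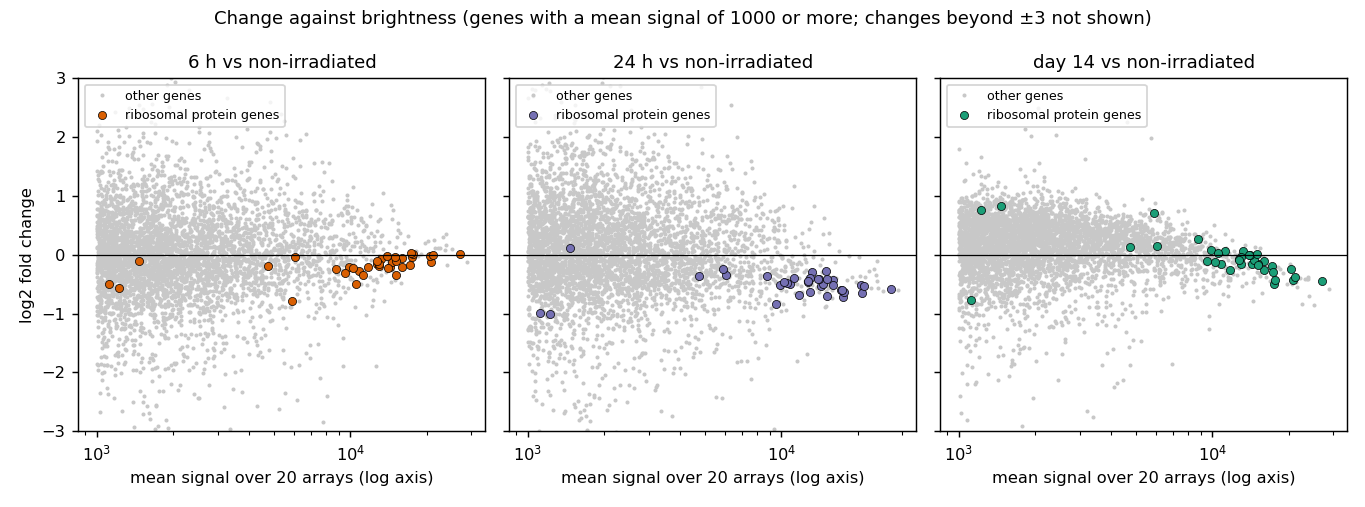
Log2 fold change against non-irradiated samples (y axis) against mean signal over 20 arrays (x axis, log scale) for members (coloured) and all other genes with a mean signal of 1000 or more (grey), at 6 h, 24 h and day 14. At 24 h the members lie low within the grey cloud, which itself bends below 0 above a signal of about 10000, and at day 14 both bend down at the bright end.

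The erythroid genes moved with the family at 6 h and 24 h. All 10 were lower at both times, with medians of -3.51 and -5.48, and at day 14 1 was higher and 0 were lower. With the erythroid mean as a covariate 0 members were called lower at 24 h or at 6 h by limma, while the fitted median change at 24 h was -0.59. That mean had 99.2% of its variance between the groups, and the same fit called 98 of all 18193 genes lower at 24 h. At an unadjusted p under 0.05 it called 3 members lower at 24 h and 3 at 6 h, where the fit without the covariate called 35 and 20. The part of erythroid cells in the change was not tested otherwise. With the pan-leukocyte mean, which has 44.6% of its variance between groups, as a covariate, 35 members remained lower at 24 h. Other markers went both ways. Of 10 B-lineage genes 2 were lower and 1 higher at 6 h, beside 14.5% and 12.9% of all genes. At 24 h 6 were lower and 1 higher (median -1.44), beside 13.8% and 15.7%, and at day 14 their median was -0.28. These shares apply to every count at 6 h and 24 h in this paragraph, and at day 14 13% of all genes were lower and 9.47% higher. Of 11 granulocyte genes 9 were lower and 0 higher at 6 h, 4 lower and 3 higher at 24 h, and 5 lower and 2 higher at day 14. Of 14 endothelial genes 13 were higher at 6 h (median 1.52) and 6 at 24 h, with 0 lower at either time. At day 14 10 of them were lower and 1 higher. Of 9 megakaryocyte genes 8 were higher at 6 h (median 1.40) and 6 at 24 h, with 0 lower at either time. At day 14 5 of them were lower and 0 higher. All 6 proliferation genes were lower at 6 h and at 24 h (medians of -1.57 and -1.78), and all 6 were higher at day 14 than at 24 h. The part of any of these other cell types, or of proliferating cells, in the change was not tested.

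Members moved alike across arrays to differing degrees. Over the 20 arrays the correlation of a member with the mean of the other members had a median of 0.84, was above 0.8 for 22 members and was highest for Rps3, Rpl4 and Rpl6 (0.98, 0.97 and 0.96). It was below 0.2 for Rpl39, Rps6, Rps16 and Rps27 (-0.090, 0.0026, -0.061 and 0.13), all read by probe sets with a mean signal under 5000. The genes outside the family most like the members' mean were Eif3a (r = 0.97), Rpsa (0.96), Rps3a1 (0.95), Eef1b2 (0.95) and Ncl (0.95), and within groups, after removing group means, 0.88, 0.87, 0.88, 0.84 and 0.75. These correlations are a description over arrays that share 4 group means.

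Probe sets set a limit to the single values. The 41 members carried 92 probe sets of a single symbol, of which 75 were lower and 1 higher at 24 h (beside 16.6% and 11.5% of all probe sets), 31 lower and 0 higher at 6 h (beside 14.9% and 9.35%), and 33 lower and 8 higher at day 14 (beside 23.1% and 7.33%). The riser at 24 h was a dim probe set of Rpl22 (0.77 ± 0.23, adjusted p = 0.0129), whose brighter probe sets gave -0.70 ± 0.070 and -0.62 ± 0.077. Of 110 probe sets that name a ribosomal protein gene beside other genes, often its processed pseudogenes, 87 were lower and 1 higher at 24 h, with a median of -0.53. Of the members' chosen probe sets 15 (suffix x_at) and 1 more (suffix s_at) are of designs that can bind other transcripts, and signal from near-identical pseudogenes cannot be separated on such probe sets. Without the probe sets open to cross-hybridization 36 members were measured, of which 30 were lower at 24 h and 7 at day 14.

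Ribosomal proteins whose symbols fall outside the naming pattern were lower at 24 h too, in 3 of 3 measured, beside 13.8% of all genes. Rpsa, the laminin receptor protein of the small subunit, had signals of 10286.5, 10624, 10911, 9631 and 11023 at 24 h, against 16555, 15291, 15572, 17277 and 16448 in non-irradiated samples, with no overlap, and changed by -0.63 ± 0.076 (adjusted p = 3.07e-07). Rps3a1 (-0.57 ± 0.087) and Fau (-0.36 ± 0.082), which encodes a ribosomal protein fused to a ubiquitin-like domain, were lower at 24 h as well. These 3 genes were not called at day 14.

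The paralogs, which can stand in for the canonical proteins, differed. Of 6 measured, 2 were higher and 0 lower at 6 h, and 2 were higher and 1 lower at 24 h. Over all genes 12.9% were higher and 14.5% lower at 6 h, and 15.7% and 13.8% at 24 h. Rps27l, a known p53 target, had signals of 6275, 6598, 6214, 4955 and 7483 at 6 h, against 4635, 3512, 3484, 4078 and 3316 in non-irradiated samples, with no overlap. It rose by 0.73 ± 0.11 at 6 h (adjusted p = 1.44e-05) and was not called at 24 h (0.24 ± 0.11, adjusted p = 0.115). Rps4l was higher at 6 h, 24 h and day 14 (1.30, 2.55 and 1.11), and Rpl39l at 24 h (1.57 ± 0.31). Rpl22l1 was lower at 24 h (-0.26 ± 0.073, adjusted p = 0.00704).

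Elongation factors, many of which share the pyrimidine motif, were lower at 24 h. Of 9 genes in this list, 7 fell and 0 rose at 24 h with a median of -0.55, and 2 fell at 6 h. Over all genes 13.8% were lower and 15.7% higher at 24 h, and 14.5% lower at 6 h. The list includes Eef1e1 and Eef2k, which are not elongation factors themselves. These 2 had the lowest values of the list at 24 h (-1.27 and -0.90). Eef1a1, which brings transfer RNA to the ribosome, changed by -0.55 ± 0.078 at 24 h, Eef2, which moves the ribosome along the message, by -0.55 ± 0.071, and Eef1b2, the exchange factor of Eef1a1, by -0.65 ± 0.068. Of 16 genes other than the 41 members known for messages of the pyrimidine type, 15 were lower and 1 higher at 24 h (median -0.55). The riser was Vim, the filament protein vimentin (0.35 ± 0.066). Of these 16 genes 13 also stand in another list described here, elongation and initiation factors, Fau and Rpsa among them.

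The initiation factors were called on both sides of 0. Of 34 measured, 13 were lower and 2 higher at 6 h (median -0.16), 17 lower and 1 higher at 24 h (median -0.28), and 1 lower and 21 higher at day 14 (median 0.40). Over all genes 14.5% were lower and 12.9% higher at 6 h, 13.8% and 15.7% at 24 h, and 13% and 9.47% at day 14. Pabpc4, a poly(A) binding protein, had the lowest value at both early times (-1.54 ± 0.10 and -1.37 ± 0.10). Eif3i, a subunit of the scaffold factor of initiation, was lower at 24 h (-0.72 ± 0.063), and Eif3d, the cap-binding subunit of that factor, was higher at day 14 (0.95 ± 0.12). Eif4a2, an RNA helicase, was the gene lower at day 14 (-0.76 ± 0.070). Of 8 termination and ribosome rescue factors 3 were lower at 24 h and 4 higher at day 14.

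Mitochondrial ribosomal proteins build the separate ribosome of mitochondria. Of 76 measured, 29 were lower and 1 higher at 6 h (median -0.36), 12 lower and 5 higher at 24 h (median -0.18), and 0 lower and 50 higher at day 14 (median 0.63). Over all genes 14.5% were lower and 12.9% higher at 6 h, 13.8% and 15.7% at 24 h, and 13% and 9.47% at day 14. The number lower at 24 h was thus close to the share of all genes. Mrpl34 (1.42), Mrpl40 (1.18) and Mrpl12 (1.14) had the highest values at day 14, and Mrps6 was the highest at 24 h (1.66, adjusted p = 2.89e-13). The difference between the cytosolic and the mitochondrial family was not tested. The 2 families also differ in brightness. At day 14 the genes outside the cytosolic family had a median of 0.21 at a signal of 1000 to 5000 and of -0.36 below 1000. Mitochondrial genes lie in both ranges, Mrpl18 in the first and Mrpl14 in the other. The part of brightness in the day 14 change was not tested.

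**Figure D5:**
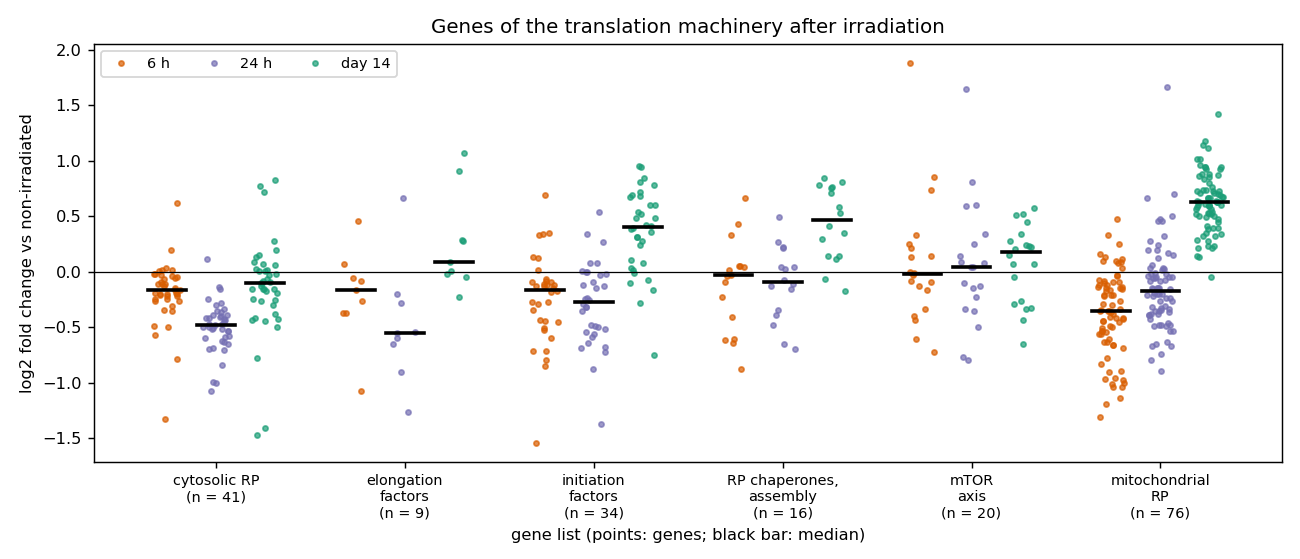
Log2 fold change against non-irradiated samples (y axis) of genes of the translation machinery at 6 h, 24 h and day 14, by list (x axis, with the number of genes). Points are genes and black bars medians. At 24 h the medians of cytosolic ribosomal proteins (-0.48) and elongation factors (-0.55, Eef1e1 and Eef2k included) are the lowest of the lists shown. At day 14 that of mitochondrial ribosomal proteins (0.63) is the highest of them.

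Chaperones and assembly factors escort ribosomal proteins into new subunits. Of 16 measured, 3 were lower at 6 h and 2 at 24 h, close to the shares of all genes given above, and 8 were higher at day 14 (median 0.47), among them Sbds (0.52 ± 0.17), which with Efl1 frees the new large subunit, and Bysl (0.85 ± 0.27), needed for the small subunit. In the mTOR axis 3 of 20 genes were higher and 2 lower at 24 h, close to the 15.7% and 13.8% of all genes. Sesn2, a p53 target that restrains mTOR complex 1, rose by 1.88 ± 0.24 at 6 h and 1.65 ± 0.24 at 24 h, and Ddit4, which acts through the Tsc complex, by 0.85 ± 0.11 and 0.60 ± 0.11. Mtor itself was not called (-0.11 ± 0.18 at 24 h), nor was Larp1, which binds the pyrimidine motif (-0.23 ± 0.10, adjusted p = 0.0931). Of 12 genes of Myc and of ribosomal RNA synthesis 8 were lower and 0 higher at 24 h (median -0.59), and 5 were higher and 2 lower at day 14. Over all genes 9.47% were higher and 13% lower at day 14.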

How the data were processed

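Each deposited column holds 1 array's linear intensity per probe set. The values show that the authors set the mean of every array, after trimming 2% at both ends, to 500. Per the labels' protocols, RNA was isolated with a Qiagen RNeasy micro kit and amplified with Nugen Ovation V2. Affymetrix Expression Console and Transcriptome Analysis Console appear in the submitters' processing notes. How probes were summarised is not given in the sources used here. Precision is limited by the number of arrays.

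Of 45101 probe sets 34945 carried 1 symbol in the platform's annotation, 932 several and 9160 none here, and 64 were controls. Values were log2 transformed after adding 1, and each gene was read from its probe set with the highest mean log2 over 20 arrays, with no filter on dim genes. R 4.3.3 with limma 3.58.1 fitted 1 model of the 4 groups (lmFit, eBayes with an intensity trend), two-sided, with Benjamini-Hochberg adjustment over 18193 genes, and was tested on simulated data. Background was the 95th percentile of 27 control probe sets for absent bacterial genes. Figures used Python 3.11.15 and matplotlib 3.10.9.

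The members and lists were chosen with earlier results of these data known. Members given in full were, for each time, the 3 largest called rises and falls and the 2 largest each way relative to the members' median, the 3 brightest and 3 dimmest, and Rplp0, Rplp1, Rplp2, Rpl5, Rpl11, Rps6, Rps19 and Rps27. Other lists gave up to 3 called genes with the largest change, and any further gene was chosen after its values were seen. Alternatives covered scaling, probe sets, offset, dim genes, variance model, covariates, threshold and arrays left out. Cyclic loess, brightness ranges, counts of every probe set and the background level were chosen after seeing the data. Deviations of same-numbered arrays correlated between -0.067 and 0.049, so no strong pairing by number was seen. Of 5 arrays, 3 correlated best with their own number between non-irradiated and day 14 and between 6 h and 24 h, and 0 to 2 between the other groups. Weak correlations of this kind cannot exclude a pairing or shared handling.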

Additional observations from a re-analysis of the deposited data

Results flagged for a closer look

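Among 80 groups of 5 values tested (20 results by 4 groups), 1 held a value far from the others, where chance gives about 1 in 20. This was Rpl37 in 6 h replicate 2, with a signal of 38.0, against 71.4 to 84.3 on the other 6 h arrays. On 18 of 20 arrays this probe set was above background.

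The effects of irradiation differed between times, by the direct contrasts of limma, in 16 of the named members. At 24 h against 6 h, Rps9 (-0.63), Rps29 (-0.60), Rps28 (-0.54), Rpl38 (-0.54) and Rplp2 (-0.32, adjusted p = 0.00343) were lower. At day 14 against 24 h, Rpl14 (1.78), Rps7 (0.74), Rps19 (0.49), Rpl11 (0.40) and Rps15 (0.29, adjusted p = 0.0012) were higher. At day 14 against 6 h, Rps2 (1.504), Rps27 (1.30, adjusted p = 0.0211), Rps6 (0.93) and Rplp0 (0.53) were higher, and Rpl39 (-1.20, adjusted p = 0.00632) and Rpl12 (-1.16) were lower. Over the family 29 members were lower at 24 h than at 6 h. Between day 14 and 24 h 32 were higher and 1 lower, and between day 14 and 6 h 13 were higher and 9 lower.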

How the results depend on the processing

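The 35 members lower at 24 h were all called lower again with median centring, centring on bright genes, cyclic loess, another offset, no dim genes, array weights, the pan-leukocyte covariate and the replicate block, and the count without each array in turn was 35 to 35. Of them 33 remained with no intensity trend, 32 with the mean of probe sets, 26 remained with quantile normalization, 30 with the 3′ minus 5′ covariate, 12 passed with a 1.5-fold minimum and 0 with the erythroid covariate. Quantile normalization called 1 higher. The cause of each difference was not tested, apart from the covariate's overlap with the groups given above.

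The 14 lower at 6 h became 5 with median centring, 29 with bright centring, 24 with cyclic loess, 5 with no intensity trend, 6 with array weights, 0 with the erythroid covariate, 5 at an adjusted p under 0.01, 2 with a 1.5-fold minimum, and 8 to 17 without 1 array. At day 14 the 4 higher became 14 with median centring or quantile normalization, 2 with bright centring, cyclic loess or any of the 3 covariates, 1 with no trend or an adjusted p under 0.01, and 2 to 4 without 1 array (2 without non-irradiated replicate 3 or day 14 replicate 2). The 13 lower became 2 with median centring, 5 with quantile, 26 with bright centring, 22 with cyclic loess, 7 without cross-hybridizing probe sets (36 members), 6 with the pan-leukocyte covariate, 3 with a 1.5-fold minimum and 11 to 14 without 1 array.

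Between 24 h and 6 h, quantile normalization gave 5 higher and 9 lower, and 2, 1 and 2 were higher with bright centring, cyclic loess and the mean of probe sets. Between day 14 and 24 h, 0 were lower with median centring or quantile and 2 without cross-hybridizing probe sets. Between day 14 and 6 h, 23 were higher and 4 lower with median centring, and 30 and 3 with quantile. Relative to the members' median, the mean of probe sets gave 14 higher and 2 lower at 6 h and 5 and 4 at 24 h, and leaving out cross-hybridizing probe sets gave 11 and 1 at 6 h, 3 lower at 24 h and 7 at day 14. Signs turned for Rps15 at 24 h (0.097), Rps28 (0.022) and Rps29 (0.073) at day 14 with quantile, and for Rps6 (-0.045) and Rps7 (0.19) at day 14 with the mean of probe sets.

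With the replicate number as a block the counts were 14, 35 and 12 lower at 6 h, 24 h and day 14, and 1 of 57 named results lost its call. The F test's 39 stayed within 1.5 times in each alternative run.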
